A study of Mus musculus with 12 samples.

Results

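The acute-phase genes Saa1, Saa2, Saa3, Saa4, Lcn2, Slpi, Hp, Orm1, Orm2 and Ptx3 were followed in cultured mouse cartilage that was left untreated or was exposed to interleukin-1α (IL-1α) or retinoic acid (RA). They were found by their symbols in the probe table, where 10 of 34509 symbols and 12 of 46632 probes belong to them. Hp and Ptx3 have 2 probes each and the others 1. The genes were chosen from the treatment differences on these same arrays, so their values in the 3 treatment comparisons are given as a description, without a test.

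RNA came from femoral head cartilage of 21-day-old TS-4/5∆cat mice, in which the exons for the catalytic domains of Adamts4 and Adamts5 are deleted in frame. Every array carries this genotype, and no wildtype tissue was analysed here. By the labels, explants were held in DMEM with 10% serum for 24 hours and then cultured for 3 days with no agent, with IL-1α at 10 ng/mL, or with RA at 10 µM. Illumina bead arrays, whose probes shine more with more of their transcript, were run on 4 samples of each treatment, 2 in each of 2 batches. All batch 1 explants came from the Donut line and all batch 2 explants from the Gertrude line, so line and batch cannot be told apart. The labels describe wells of 4 hips and triplicate treatments, whereas the study's methods describe culture without serum and unpooled mice, and how the arrays map to mice is not given in either. An n of 4 therefore counts arrays, and p-values here measure only the spread between them, which may be partly technical.

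IL-1α is an inflammatory cytokine that drives cartilage to break down its matrix, and RA is a vitamin A metabolite that also provokes aggrecan loss from cartilage but acts through nuclear receptors. In the acute-phase response, IL-1 and IL-6 family cytokines act through the transcription factors NF-κB, C/EBP and STAT3 to raise the secretion of a set of plasma and tissue proteins. The liver is the classical source, but Saa3, Lcn2, Slpi and Ptx3 are also known from many tissues outside it. The serum amyloid A proteins bind lipoprotein and retinol, Lcn2 binds bacterial siderophores, Slpi inhibits neutrophil serine proteases, Hp binds free haemoglobin, the orosomucoids Orm1 and Orm2 carry small lipophilic molecules, and Ptx3 is a soluble pattern recognition molecule.

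Promoters were examined because these genes, apart from Saa4, were high together with IL-1α. RefSeq (GRCm38.p6) sequences covering 250 bases before to 50 bases after the start site were at hand for 8 of the 10 genes, all except Hp and Orm1. Both strands were searched for a C/EBP motif (TTGCNNAA), a STAT motif (TTCNNNGAA), a TATA box (TATAAA), the NF-κB consensus and the RA response element with a spacer of 5 bases. The C/EBP letters were present in 8 of 8 promoters, against 10.8% of the 32851 promoters of this length. Those 8 include Saa4, which was not detected on any array, and Saa1 and Saa2, whose promoters are nearly identical. The NF-κB consensus was found in 1 of 8, that of Ptx3, where a pair of overlapping matches spans the start site, against 8.46% of all promoters. The TATA box was found in 1 of 8, that of Orm2, against 13.6%. The STAT motif and the RA response element were found in 0 of 8, against 8.3% and 0.0974%. A match is a run of letters and not a shown binding site.

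The 5 promoters below are shown because they belong to the genes whose levels differ most in pattern, with motif matches in capitals. Saa1 (chr7:46742931-46743230, minus strand) and Saa2 (chr7:46751583-46751882, plus strand) were the genes with the largest IL-1α difference, and their promoters were identical at 287 of 301 aligned positions, 95.3%, with the same C/EBP letters (TTGCACAA) at positions -182 to -175 and -183 to -176 from the start. Saa3 (chr7:46715627-46715926, minus strand) and Lcn2 (chr2:32387690-32387989, minus strand) were bright without treatment. Orm2 (chr4:63362199-63362498, plus strand) was detected with IL-1α alone, and its match reads the same on both strands.
Saa1: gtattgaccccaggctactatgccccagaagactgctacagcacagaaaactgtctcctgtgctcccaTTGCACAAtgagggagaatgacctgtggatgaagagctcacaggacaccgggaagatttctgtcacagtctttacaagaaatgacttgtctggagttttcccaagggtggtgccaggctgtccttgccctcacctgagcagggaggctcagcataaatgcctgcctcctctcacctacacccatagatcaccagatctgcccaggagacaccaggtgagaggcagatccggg
Saa2: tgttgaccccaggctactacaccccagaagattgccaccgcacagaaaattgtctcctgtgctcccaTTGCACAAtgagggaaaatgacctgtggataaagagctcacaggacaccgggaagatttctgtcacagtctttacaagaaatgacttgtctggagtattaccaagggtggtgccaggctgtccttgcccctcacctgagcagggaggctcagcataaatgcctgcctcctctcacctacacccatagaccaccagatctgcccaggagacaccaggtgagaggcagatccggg
Saa3: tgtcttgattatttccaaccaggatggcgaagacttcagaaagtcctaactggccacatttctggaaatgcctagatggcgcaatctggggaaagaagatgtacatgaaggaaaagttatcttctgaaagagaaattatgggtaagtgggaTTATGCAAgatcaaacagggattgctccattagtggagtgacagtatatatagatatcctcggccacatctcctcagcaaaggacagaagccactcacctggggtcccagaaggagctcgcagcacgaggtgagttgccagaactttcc
Lcn2: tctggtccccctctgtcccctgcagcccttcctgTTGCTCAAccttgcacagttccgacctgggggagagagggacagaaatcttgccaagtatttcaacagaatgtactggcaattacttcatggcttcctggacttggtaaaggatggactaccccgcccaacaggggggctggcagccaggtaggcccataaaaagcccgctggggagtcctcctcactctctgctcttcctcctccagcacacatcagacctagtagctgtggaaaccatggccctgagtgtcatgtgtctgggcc
Orm2: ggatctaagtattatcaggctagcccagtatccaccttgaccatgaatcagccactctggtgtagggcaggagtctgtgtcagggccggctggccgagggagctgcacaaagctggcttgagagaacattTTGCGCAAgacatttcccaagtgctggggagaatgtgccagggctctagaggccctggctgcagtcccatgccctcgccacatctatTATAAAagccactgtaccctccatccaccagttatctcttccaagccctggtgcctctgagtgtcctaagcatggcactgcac
Outside the Saa1 and Saa2 pair, no pair of these 8 promoters was identical at more than 54.2% of aligned positions. The near identity of Saa1 and Saa2 extends to older naming, since each is listed in RefSeq as a synonym of the other, and the probe sequences are not in the table. Signal at the Saa1 and Saa2 probes, and likewise at the Orm1 and Orm2 probes, may therefore be shared between close copies.

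**Figure D1:**
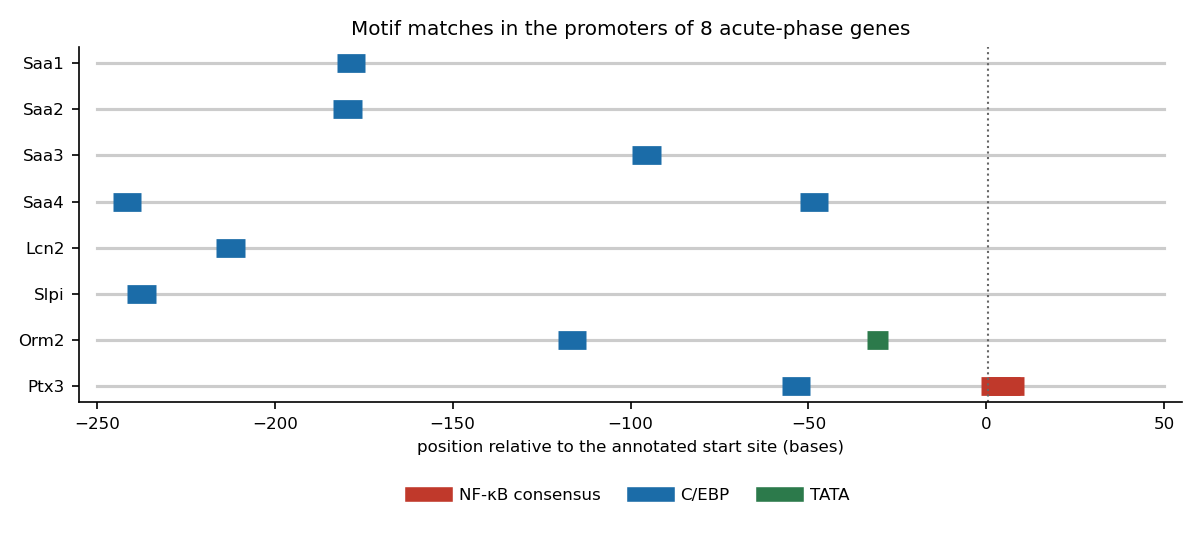
Position of motif matches in bases relative to the annotated start site (dotted line) for the 8 genes with a promoter sequence. Grey lines are the 300 bases searched and coloured boxes are the matches. Every gene has a C/EBP box, Orm2 alone has a TATA box and Ptx3 alone has NF-κB boxes.

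All levels below are log2 intensities after background correction and quantile normalization, on which a step of 1 is a doubling and the highest value on any array was 14.24. Values of 4 arrays are given with both batch 1 arrays first. A probe counts as detected on an array where its detection p was under 0.05, and 11 of the 12 probes, for 9 of the 10 genes, were detected on at least 4 of 12 arrays and entered the fit of 18200 probes. Orm1 and Orm2 passed this filter through their IL-1α arrays, so a difference there was built into passing. Saa4, a constitutive member of the serum amyloid A family, was not detected on any of the 12 arrays and has no difference to report. The number of detected probes per array was 13786 to 14965 in batch 1 and 16732 to 19485 in batch 2.

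With IL-1α, the 4 arrays lay wholly above the 4 untreated arrays for 8 of the 9 measured genes, the exception being Ptx3, and for all 9 within each batch. Over all probes, 13.5% had no overlap in this comparison in either direction, and nothing is read from the count because the comparison was among those that chose the genes. With RA, 1 gene of 9, Slpi, lay wholly below the untreated arrays, where 16.9% of all probes had no overlap. Within each batch, 5 of the 9 lay wholly below. Nothing is read from the counts within batches either, which have no share of all probes beside them. Against IL-1α, the RA arrays lay wholly below for 9 of 9, where 17.7% of all probes had no overlap. The median log2 difference of the 9 genes was 2.03 for IL-1α against untreated, -0.76 for RA against untreated and -3.41 for RA against IL-1α, beside 0.02, 0.02 and -0.03 over all 18200 probes.

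**Figure D2:**
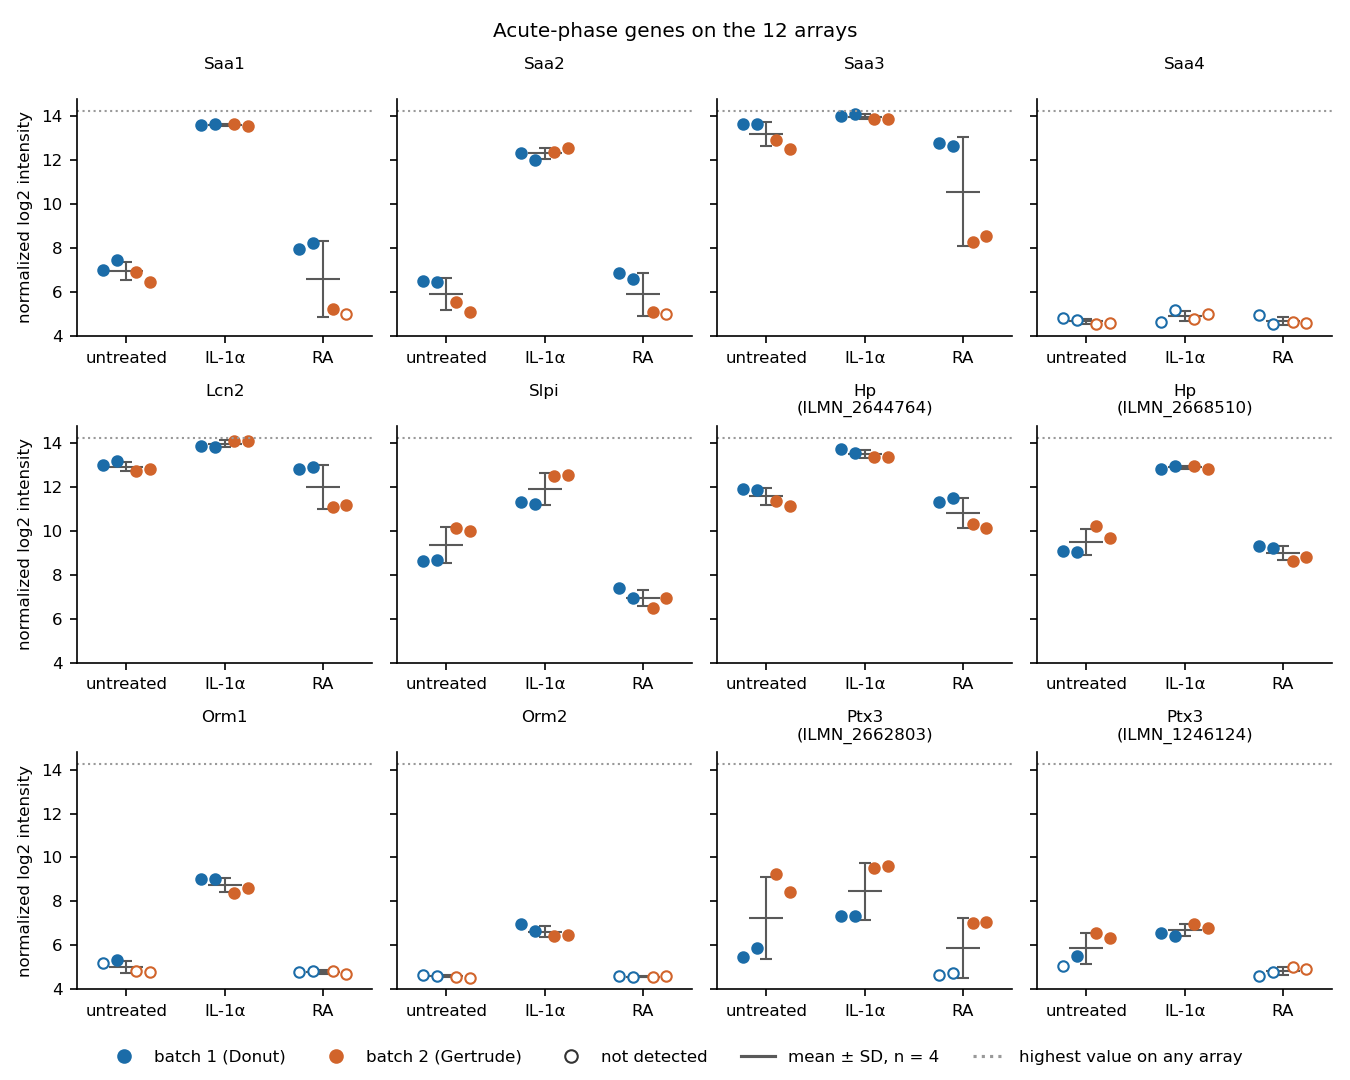
Normalized log2 intensity (vertical axis) of each of the 12 probes on each array, by treatment, with batch 1 in blue and batch 2 in orange. Open circles are arrays on which the probe was not detected, bars are the mean ± SD of 4 arrays, and the dotted line is the highest value on any array, 14.24. Saa1 and Saa2 are dim except with IL-1α, Saa3 and Lcn2 are bright throughout except with RA in batch 2, and Saa4 is undetected.

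Saa1 and Saa2 encode the inducible serum amyloid A proteins of plasma. Untreated cartilage gave Saa1 levels of 7.02, 7.47, 6.91 and 6.47, and IL-1α gave 13.62, 13.65, 13.65 and 13.56. The mean was 6.97 ± 0.41 (SD, n = 4) untreated and 13.62 ± 0.04 with IL-1α, a log2 difference of 6.65 (SE 0.45) or 101-fold. The IL-1α arrays formed a narrow band far above every untreated array. Saa1 levels with RA were 7.97 and 8.26 in the first batch, and 5.24 and 5.01 in the second, the last of these not detected. The RA arrays were thus above the untreated arrays of their own batch in batch 1 (log2 difference 0.86) and below them in batch 2 (-1.56), and the pooled difference of -0.35 (SE 0.45) is smaller than its error.

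Saa2 followed Saa1. Its 4 untreated arrays read 6.53, 6.48, 5.56 and 5.08, and its IL-1α arrays 12.33, 12.001, 12.37 and 12.56. The log2 difference was 6.40 (SE 0.31), or 84.7-fold, with 5.66 in batch 1 and 7.14 in batch 2. With RA, Saa2 read 6.85, 6.62, 5.09 and 5.02, and the last array was again below detection. RA and untreated arrays lay at the same level, with a difference of -0.02 (SE 0.31). Across the 12 arrays, after subtraction of each batch's mean, Saa1 and Saa2 correlated at r = 0.99, and the points share arrays, normalization and possibly hybridising transcript.

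Saa3, the serum amyloid A gene known for its expression outside the liver, had a different pattern. Without treatment it read 13.66, 13.66, 12.95 and 12.53, and with IL-1α 14.04, 14.12, 13.89 and 13.89. The IL-1α and untreated arrays did not overlap, and IL-1α was higher by 0.79 (SE 0.62) on the log2 scale, or 1.72-fold. This difference was 0.42 in batch 1 and 1.15 in batch 2. With RA it read 12.79 and 12.67 in batch 1 but 8.29 and 8.57 in batch 2. Batch 2 RA arrays were 19.8-fold below their untreated arrays, and batch 1 RA arrays 1.91-fold below theirs. Against IL-1α, the RA arrays were lower by 2.55-fold in batch 1 and 44.1-fold in batch 2.

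Lcn2, the siderophore-binding lipocalin that is also stored in neutrophil granules, resembled Saa3. Untreated arrays gave 13.01, 13.16, 12.73 and 12.81, and IL-1α arrays 13.88, 13.81, 14.09 and 14.10. The log2 difference was 1.04 (SE 0.31), or 2.06-fold. RA arrays gave 12.84 and 12.89 in batch 1, just under the untreated arrays, and 11.09 and 11.16 in batch 2, well under them. The RA difference was -0.22 in batch 1, where before normalization the raw log2 difference was 0.08, and -1.65 in batch 2. Saa3 and Lcn2 correlated at r = 0.95 over the 12 batch-centred arrays.

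Slpi, the secretory leukocyte protease inhibitor, moved in opposite directions with the treatments. Its untreated levels were 8.63, 8.67, 10.12 and 9.98, its IL-1α levels 11.31, 11.24, 12.48 and 12.55, and its RA levels 7.38, 6.96, 6.50 and 6.94. The 3 treatments did not overlap, with IL-1α highest and RA lowest. IL-1α exceeded untreated by 2.54 (SE 0.31) on the log2 scale, 5.83-fold, at nearly equal size in batch 1 (2.62) and batch 2 (2.46). RA was below untreated by 5.31-fold, at -1.48 in batch 1 and -3.33 in batch 2. Between RA and IL-1α the gap was 30.9-fold.

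Haptoglobin was measured by a pair of probes that agreed on direction with IL-1α and differed in size. The brighter probe (ILMN_2644764) read 11.92, 11.87, 11.37 and 11.12 untreated, 13.73, 13.54, 13.37 and 13.35 with IL-1α, and 11.31, 11.49, 10.33 and 10.13 with RA. Its IL-1α difference was 1.93 (SE 0.17), or 3.81-fold. The other probe (ILMN_2668510) read 9.07, 9.02, 10.24 and 9.66 untreated and 12.81, 12.95, 12.96 and 12.83 with IL-1α, a difference of 3.39 (SE 0.24), or 10.5-fold. For RA against untreated the probes gave -0.76 (SE 0.17) and -0.52 (SE 0.24), and in batch 1 they disagreed on direction, at -0.49 and 0.20.

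The orosomucoid genes were near the detection limit without IL-1α. Orm1 read 5.20, 5.31, 4.83 and 4.77 untreated, where 1 of 4 arrays was detected, and 4.80, 4.83, 4.83 and 4.67 with RA, where 0 of 4 were. With IL-1α it was detected on 4 of 4 arrays at 9.01, 9.003, 8.39 and 8.59. The IL-1α mean of 8.75 ± 0.31 (SD, n = 4) was above the untreated mean of 5.03 by 3.72 (SE 0.13) on the log2 scale. Against RA it was at least 11.8-fold higher on this scale, a bound set from the lowest detected signal of each RA array. The size depends on how background is treated, with bounds of 6.58-fold at an offset of 50 and 6.997-fold without background correction, and with 2.80 and 2.93 against untreated. Orm2 was not detected on any untreated or RA array and read 6.99, 6.64, 6.41 and 6.46 with IL-1α, at least 2.84-fold above untreated and at least 2.71-fold above RA, or 1.93-fold and 1.88-fold at an offset of 50. Orm1 and Orm2 correlated at r = 0.99 over the arrays, which share undetected values in 2 of 3 treatments.

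Ptx3, the long pentraxin, was set apart by batch. Its brighter probe (ILMN_2662803) read 5.47 and 5.89 in untreated batch 1 and 9.23 and 8.42 in untreated batch 2. IL-1α gave 7.36 and 7.33 in batch 1 and 9.51 and 9.61 in batch 2, and RA gave 7.03 and 7.05 in batch 2 with no detection in batch 1. IL-1α arrays were above untreated and RA arrays below untreated within both batches, while over both batches untreated and IL-1α arrays overlapped. The pooled log2 differences were 1.20 (SE 0.20) for IL-1α and -1.39 (SE 0.20) for RA. The other probe (ILMN_1246124) gave 0.84 (SE 0.18) for IL-1α. It was undetected on 4 of 4 RA arrays, which were at least 1.59-fold below untreated.

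**Figure D3:**
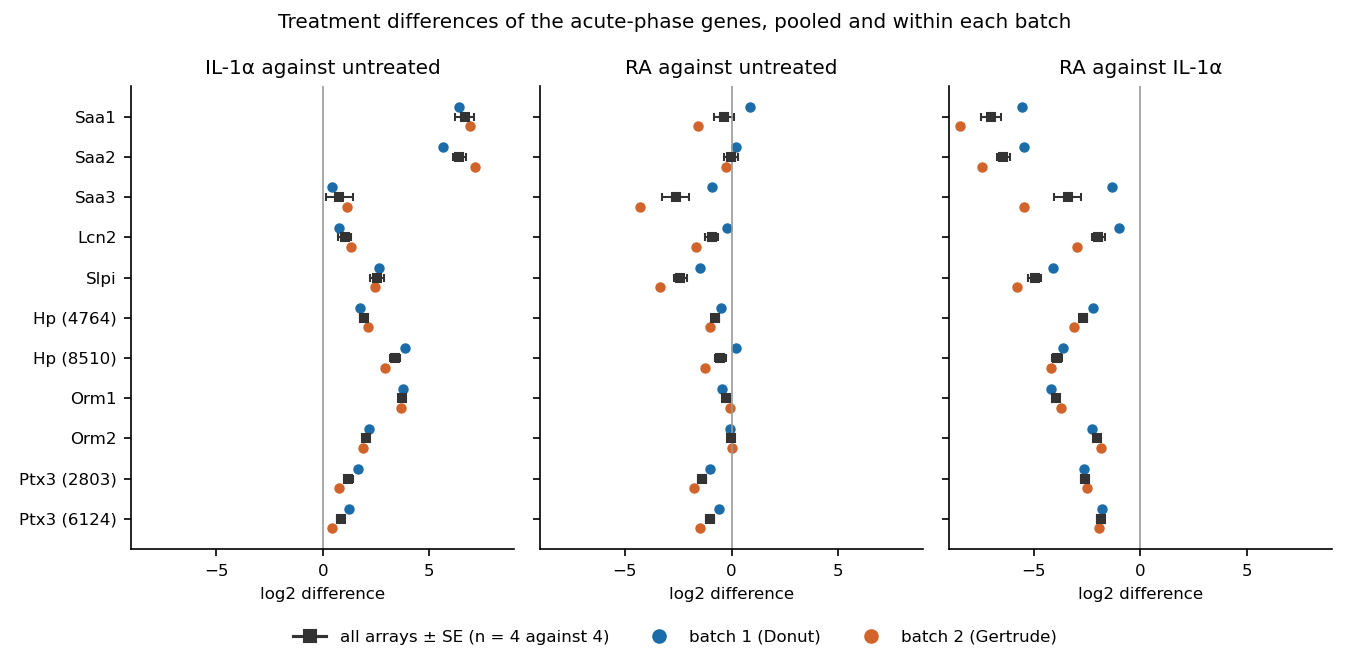
Log2 differences (horizontal axis) of the 11 probes in the fit for the 3 treatment comparisons. Black squares are the pooled difference with its SE, and blue and orange circles are the difference within batch 1 and batch 2. IL-1α against untreated is above 0 for every probe, and for Saa1, Saa2, Saa3, Lcn2 and Slpi the batch 2 value of RA against IL-1α is further below 0 than that of batch 1.

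Several of these signals were close to the top of the raw scale. An array holds 46632 probes, and near the top is taken here as the 47 brightest, 0.1%. Saa3 was among them on 4 of 4 IL-1α arrays, at ranks 4 to 21 and 77.0% to 90.3% of the brightest probe's raw intensity. Lcn2 was among them on 4 of 4, at ranks 5 to 33 and 76.8% to 92.7%. Hp was among them on 1 of 4 IL-1α arrays (rank 46), and Saa1 came just outside at ranks 61 to 75 and 66.4% to 68.4%. No untreated or RA array had any of these probes among its 47 brightest. The untreated batch 1 arrays of Saa3 came nearest, at ranks 59 and 60.

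On the untreated arrays the Saa3 probe stood at 32.5% to 63.3% of the brightest raw intensity and the Lcn2 probe at 29.4% to 41.1%. Whether the top of the scale bears on the size of their IL-1α differences was not tested. Saa2 and Slpi stood at 31.8% of the brightest probe or less on every array, and Orm1, Orm2 and Ptx3 at 4.14% or less.

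**Figure D4:**
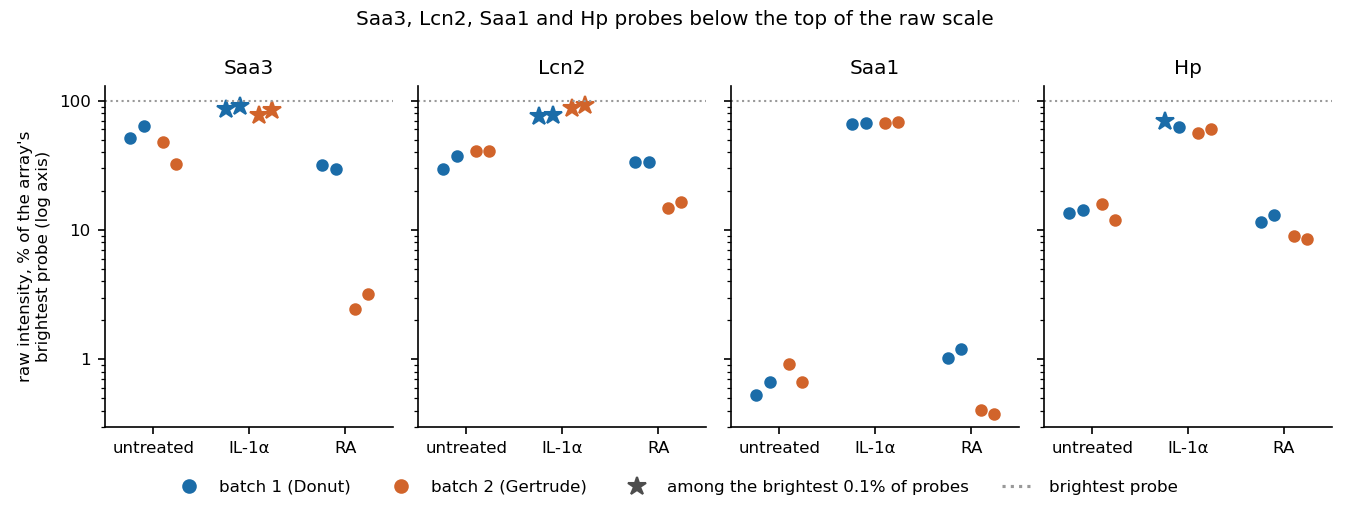
Raw intensity of the Saa3, Lcn2, Saa1 and Hp (ILMN_2644764) probes as a percent of the brightest probe on the same array (log axis), by treatment and batch. Stars are arrays on which the probe was among the 47 brightest, and the dotted line is the brightest probe. The IL-1α arrays of Saa3 and Lcn2 stand at 76.8% to 92.7%, and the batch 2 RA arrays of Saa3 at 2.43% and 3.21%.

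With RA these genes read differently in the 2 batches. For Saa1, Saa2, Saa3, Lcn2 and Slpi the batch 2 minus batch 1 difference of the RA against IL-1α effect was -2.95, -1.97, -4.11, -1.99 and -1.69 on the log2 scale, given without a test because it was known before. The difference was tested for the other genes with terms for treatment by batch in limma, where 8.76% of all probes passed an adjusted p under 0.05. It was -0.90 for the brighter Hp probe (limma adjusted p = 0.0173), and the call was lost with the arrays scaled to one median, at -0.50 (limma adjusted p = 0.279), and with normalization within each batch, at -0.64 (limma adjusted p = 0.073). It was also lost when IL-1α batch 1 replicate 2, IL-1α batch 2 replicate 2, RA batch 1 replicate 2 or RA batch 2 replicate 2 was left out, at values of -0.81, -0.91, -0.81 and -0.79 (limma adjusted p = 0.092, 0.0581, 0.0939 and 0.0781). Ptx3 did not pass, with limma adjusted p = 0.831. For Orm1 and Orm2 nothing is read from this test, since they passed the filter through their IL-1α arrays and their RA arrays were all undetected. For IL-1α against untreated and RA against untreated, 4.82% and 2.86% of all probes passed this test, and the brighter Hp probe and both Ptx3 probes did not. Nothing is read from Orm1 and Orm2 in those comparisons, since 1 and 0 of their 8 untreated and RA arrays were detected. The other Hp probe gave the reverse order of calls, at -0.55 (limma adjusted p = 0.192) for RA against IL-1α and -1.44 (limma adjusted p = 0.00458) for RA against untreated.

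The level of Ptx3 itself also differed between the batches. Averaged over treatments, the brighter probe was 2.57 (SE 0.16) higher on the log2 scale in batch 2, or 5.95-fold (limma adjusted p = 9.02e-10), with 3.14 untreated, 2.22 with IL-1α and 2.35 with RA, and between 2.00 and 3.43 under the alternatives run. The other probe was 1.54-fold higher (limma adjusted p = 0.000792). Such differences were common, since 33.4% of all probes were called higher and 42.9% lower in batch 2, and the 8 of 9 acute-phase genes called here are no result against that background. The count was 3 with the arrays scaled to one median, and the directions of Saa2, Lcn2, Orm1 and Orm2 turned with normalization within each batch.

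Marker lists were examined for the other cell types that femoral head explants can hold. Of 10 chondrocyte markers, 9 were measured, 7 were detected on all 12 arrays and Matn3 was undetected throughout. Over all probes, 15.2% were called higher and 14.1% lower with IL-1α, and 18.2% and 17.1% with RA. Of the chondrocyte markers, 7 of the 9 fell with IL-1α and 9 of 9 with RA, and their summed log2 level was 16.23 to 16.51 untreated, 15.46 to 15.93 with IL-1α and 13.91 to 14.41 with RA. Of 7 hepatocyte markers, 6, including Alb, Ttr and Fgb, were undetected on all 12 arrays, and Serpina1a was detected on 3. Neutrophils store Lcn2, Slpi, Hp and orosomucoid, and 8 of 10 neutrophil markers were detected on all 12 arrays, while Mmp8 was detected on 1 and Ly6g has no probe under that symbol. Their summed level was 13.32 to 14.04 untreated, 14.08 to 14.16 with IL-1α and 12.52 to 13.94 with RA. Of the 8 neutrophil markers in the fit, 0 were called with IL-1α, and with RA 5 were called lower, namely Mpo, Elane, Ngp, Ltf and Camp, at log2 differences of -2.10, -1.45, -1.26, -0.83 and -0.56. The neutrophil protease Elane was lower with RA in batch 1 (-2.83) and near its untreated level in batch 2 (-0.07). With IL-1α, Elane was near its untreated level in batch 1 (0.14) and higher in batch 2 (1.73). The batches differed there (limma adjusted p = 0.00113), so a marker not called over both batches can still differ within 1 of them. In bulk tissue fewer cells of a type and less RNA per cell cannot be told apart, and the part of these cells in the levels above was not tested. Macrophage markers split, with 2 of 9 measured called higher and 5 lower with IL-1α and 5 higher with RA. Of 4 measured red cell markers 0 were called with either agent. Synovial and fibrous markers were called lower at 4 of 7 with IL-1α and 6 of 7 with RA, and 1, Pdpn, was called higher with IL-1α, at 0.70. Both measured adipocyte markers were lower with each agent. Endothelial markers were lower at 3 of 5 with IL-1α, and 1, Emcn, was higher with RA, at 0.39.

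The other genes of the acute-phase response were taken as 7 lists of 77 genes, of which 74 had a probe and 48 entered the fit. With IL-1α, 27 of the 48 rose and 5 fell at a limma adjusted p under 0.05, where 15.2% of all probes were called higher and 14.1% lower. With RA, 16 rose and 11 fell, where 18.2% and 17.1% of all probes were called. RA was above IL-1α for 5 and below it for 25, where 15.2% and 15.8% of all probes were called. The median log2 difference of the 48 was 0.50 for IL-1α, 0.10 for RA and -0.42 for RA against IL-1α. These lists were drawn up with earlier results of these arrays known, so their counts are no independent evidence of a direction. Of the 48, Itih3, Il1a, Il1rap, Il1r2 and Nptx1 were detected on fewer than 4 arrays outside their brightest treatment, so that a difference was favoured by passing the filter. Among the other 43, 24 rose and 4 fell with IL-1α, 15 rose and 9 fell with RA, and RA was above IL-1α for 5 and below it for 22. The shares of all probes given here also stand beside the counts of the single lists below.

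Among ligands and receptors, 7 of 12 measured genes rose with IL-1α and 0 fell. Il1a and Il1r2, among the 7, were undetected untreated, so that passing the filter favoured their rise. Lif, an IL-6 family cytokine, rose by 2.86 (SE 0.11, limma adjusted p = 4.12e-09), from 5.33 to 8.19. Il1b rose by 2.69 (SE 0.27, limma adjusted p = 1.3e-05). Il1a was at least 2.32-fold higher, a bound because it was undetected untreated. The receptor antagonist Il1rn rose by 1.29. With RA, 4 rose, Il1b by 1.83 and Il1a by at least 1.33-fold among them, and 3 fell. Those were the receptor genes Il6ra at -0.88, Il6st at -0.43 and Il1rap at least 1.36-fold, to below detection. The fall of Il1rap was also favoured by passing the filter. Il1b thus rose with both agents. Il6 and Tnf did not pass the detection filter. Each was detected on 2 of 4 IL-1α arrays and on no untreated or RA array.

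Of the transcription factors and feedback genes, 8 of 9 were called higher with IL-1α, where 15.2% of all probes were. The list was drawn up with earlier results known. The smallest of these rises was 0.40 for Stat3, and Nfkbia was detected on 2 of 4 arrays of each treatment. Nfkbiz, the IκBζ cofactor needed for several secondary NF-κB targets, rose by 1.72 (SE 0.17, limma adjusted p = 1.23e-05) and the feedback inhibitor Socs3 by 1.55 (SE 0.14, limma adjusted p = 3.85e-06). Cebpb rose by 1.39 and Cebpa by 1.27. Whether these C/EBP factors act on the promoters searched above was not tested. Cebpd alone did not pass, at 0.28 (SE 0.13, limma adjusted p = 0.136). With RA, 4 of the 9 rose, Cebpb by 1.00, Socs3 by 0.99, Cebpa by 0.44 and Stat3 by 0.44. None fell with RA, and 8 of 9 were lower with RA than with IL-1α.

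Of the other positive acute-phase plasma proteins, 8 of 14 were measured, and the 4 that rose with IL-1α were C3, Cfb, Fga and Hpx. Complement C3 rose by 2.80 (SE 0.44, limma adjusted p = 0.000428), from 9.78 to 12.58, and complement factor B by 2.80 (SE 0.34, limma adjusted p = 6.88e-05). Factor B was detected on 2 of 4 untreated arrays. Serpina3n, a serine protease inhibitor, and Itih3, a hyaluronan-linked inhibitor chain, also changed, Serpina3n falling by 0.63 and Itih3 at least 1.99-fold lower. Itih3 was detected on the 4 untreated arrays and no other, so its lower level was built into passing the filter. With RA, Fga alone rose, by 1.73, and Serpina3n fell by 3.17 (SE 0.15, limma adjusted p = 4.76e-09), while Itih3 was at least 2.08-fold lower. Crp, Apcs, Fgb, Fgg, Hamp and Itih4 did not pass the filter. Of 3 measured negative acute-phase proteins, Rbp4, the plasma retinol carrier, fell with both agents, at -1.24 and -1.75, Apoa1 fell with IL-1α at -0.51, and transferrin (Trf) rose with RA by 1.41.

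Among WFDC antiproteases, the family to which Slpi belongs, and cystatins, 4 of 12 genes were measured. Wfdc1 rose with RA by 2.03 (SE 0.19, limma adjusted p = 2.89e-06) and fell with IL-1α, at -0.71, opposite to the order of Slpi. Wfdc2 rose with both, by 0.79 and 1.07, as did the cystatin Cstb, by 0.43 and 0.42. Cst3, a secreted cystatin, did not pass in either.

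Receptors, binding partners and target proteases were measured for 9 of 13 genes, and 5 rose with IL-1α. The serum amyloid A receptors Fpr2, Tlr2, Tlr4 and Scarb1 rose by 1.66, 1.25, 0.86 and 0.35, and Mmp9, which binds Lcn2, by 0.61. With RA, Tlr2 fell by 2.16 (SE 0.18, limma adjusted p = 8.68e-07) and Scarb1 was lower, at -0.54. Mmp9 rose with RA by 1.58, Tlr4 by 1.19 and Fpr2 by 0.93. The Slpi targets Ctsg and Elane fell with RA, at -2.46 and -1.45. Ctsg was detected on 2 of 4 RA arrays, at a mean of 5.40, so the size of its fall is limited by detection. Prtn3, another neutrophil protease, did not pass with RA (0.36, SE 0.37), with -0.84 in batch 1 and 1.56 in batch 2. The Lcn2 receptor Slc22a17 did not pass in any comparison. Of 3 other lipocalins and pentraxins measured, Nptx1 rose with IL-1α by 0.38 and Nptxr fell with RA, at -0.49.

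**Figure D5:**
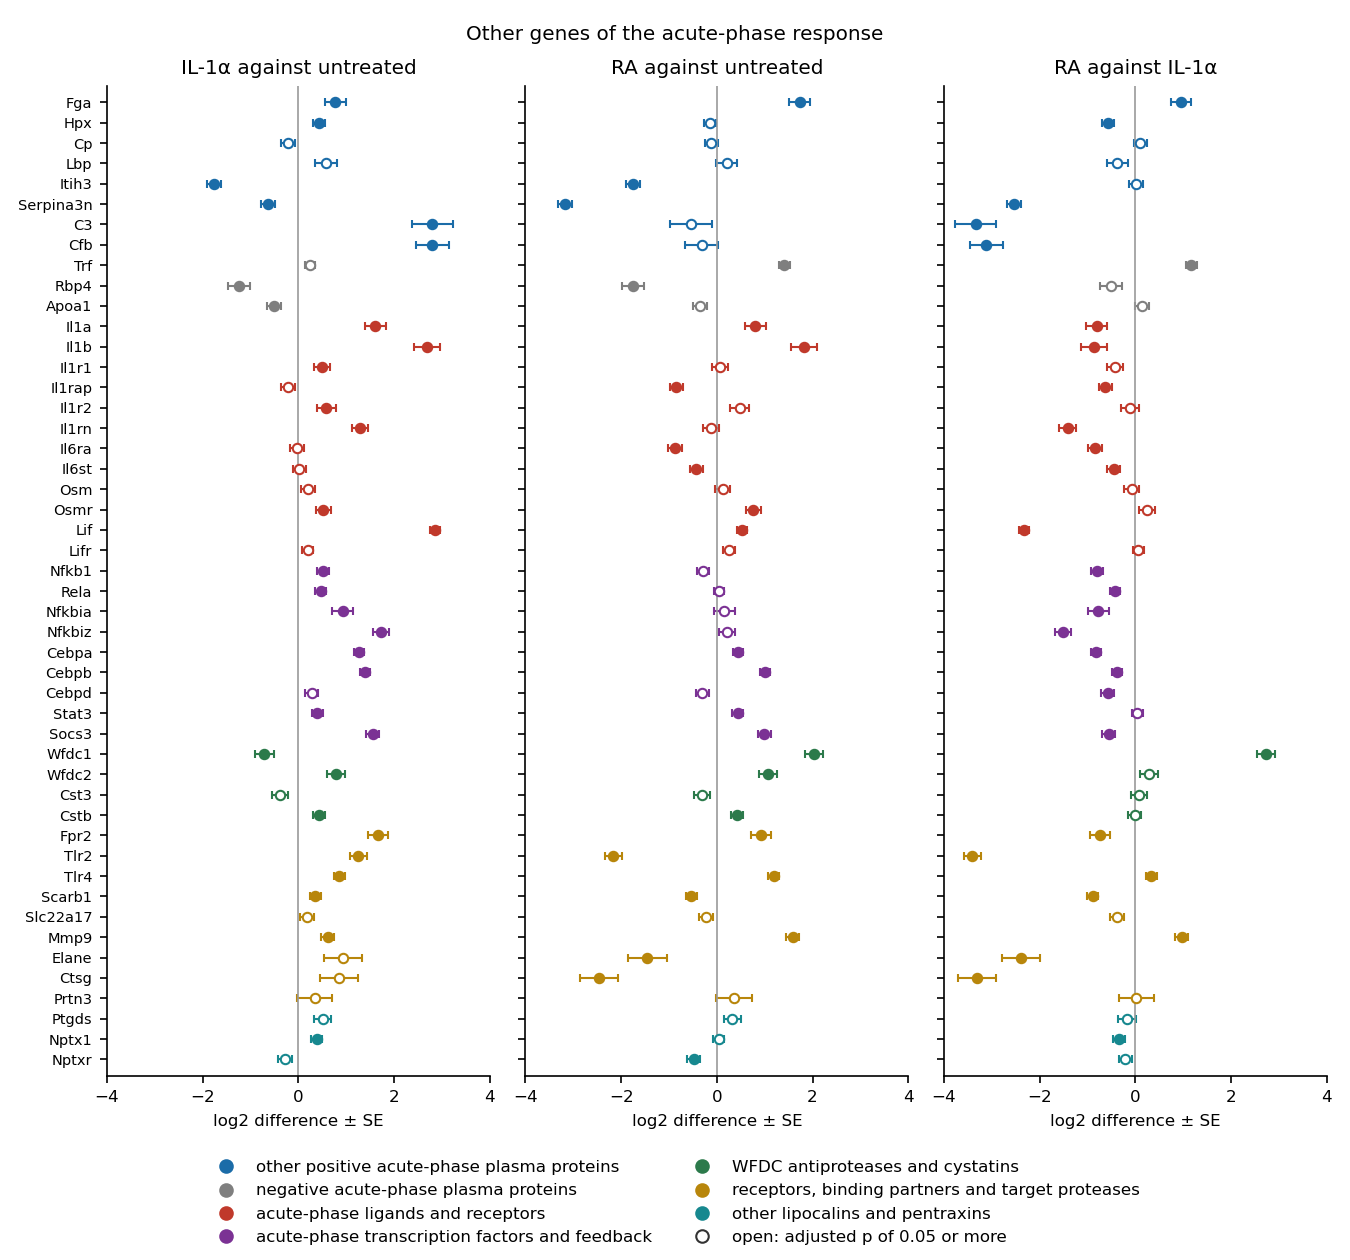
Log2 difference with its SE (horizontal axis) of the 48 measured genes of 7 acute-phase lists in the 3 treatment comparisons, 4 arrays against 4. Filled circles passed an adjusted p under 0.05 in limma and open circles did not. C3, Cfb, Lif and Il1b stand furthest right with IL-1α, and Serpina3n, Ctsg and Tlr2 furthest left with RA.

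The treatment effect differed between batches for 12 of the 48 genes in RA against IL-1α, 9 of them with the lower value in batch 2, where 8.76% of all probes passed. C3 and Cfb showed the greatest differences of the 12, -2.99 (SE 0.22, limma adjusted p = 2.2e-06) and -2.31 (SE 0.24, limma adjusted p = 4.41e-05). Cfb was detected on 2 of 4 untreated and 2 of 4 RA arrays, at means of 5.81 and 5.49, so the size of its differences is limited by detection. C3 was lower with RA than with IL-1α by 1.84 in batch 1 and by 4.83 in batch 2, an order of values like that of Saa3 (-1.35 and -5.46). Ctsg, Fpr2 and Elane differed in the other direction, by 1.49, 1.25 and 1.16. Ctsg was detected on 2 of 4 RA arrays, so the size of its RA differences is likewise limited by detection. For IL-1α against untreated 9 of 48 differed, where 4.82% of all probes passed, 8 of them with the higher value in batch 2. Prtn3, C3, Elane, Cfb and Ctsg had the greatest differences of the 9, at 1.77, 1.61, 1.59, 1.31 and 1.17. C3 and Cfb rose in both batches, with the larger rise in batch 2. Lbp, which was not called over both batches (0.58, limma adjusted p = 0.0717), gave 0.08 in batch 1 and 1.07 in batch 2. For RA against untreated 9 of 48 differed, where 2.86% of all probes passed. The neutrophil proteases Elane, Ctsg and Prtn3 had the greatest differences of the 9, at 2.76, 2.66 and 2.39 (limma adjusted p = 8e-06, 0.000121 and 6.74e-05), each with the lower value in batch 1. This comparison and that of IL-1α against untreated share the untreated arrays. For RA against IL-1α, Prtn3 did not pass, at 0.62 (limma adjusted p = 0.12), while Elane and Ctsg did. Il1b gave 2.67 in batch 1 and 0.98 in batch 2 for RA against untreated.

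The genes most like each member over the 12 batch-centred log2 values were named by Pearson's r, as a description in which all points share arrays and normalization. For Saa1 and Saa2 the nearest was the chemokine Ccl5 (r = 0.992 and 0.999), with Icam1 (0.992) next for Saa1. For Saa3 and Lcn2 it was Scara5, a ferritin receptor (0.988 and 0.976). Slpi was nearest to Lmcd1 and the stromelysin Mmp3 (0.989 each), Hp to Cnnm2 (0.993), and Ptx3 to Dhrs7 and Pmp22 (0.991 each). Orm1 was nearest to Cited1 (0.997) and Orm2 to D930049F02Rik (0.993), and Vnn3 was among the nearest 3 of both.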

How the data were processed

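The authors deposited 1 table of probe intensity values on a linear scale for 12 arrays, without background correction or normalization, and beside each intensity a detection score that rises with brightness, taken here as 1 minus the detection p. The program that summarised the beads is not given in the sources used here. Columns were mapped to arrays through their labels, and 0 of them stayed unmapped.

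The neqc function of limma 3.58.1, in R 4.3.3, took background from the detection p and applied quantile normalization, an offset of 16 and log2. Of 46632 probes, the 18200 detected (p under 0.05) on 4 or more arrays entered the fit. The model had treatment and a 4-level factor for batch and replicate, as in the study's methods. Models of treatment and batch, and of treatment by batch, compared the batches. The eBayes p-values were adjusted over all kept probes by the Benjamini-Hochberg method. The functions were tested on simulated data. Fold changes against a group with no detection are bounds, in which an undetected probe was raised on each array to that array's dimmest detected signal where it lay under it. They hold on the scale with an offset of 16. The number of arrays, 4 per treatment, limits the precision.

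The members and lists were chosen with earlier results of these data known. Of several probes, the kept one with the highest mean stands for the gene. Named are every member with all its probes, and per companion list up to 4 called genes of largest difference in each comparison with the remaining members of short counts. Of the 3 genes most correlated with each member, the nearest is named, and for some members another. Of 77 companion genes, 68 matched the array by symbol, 6 by a synonym in the RefSeq table of GRCm38.p6 and 3 not at all. Promoters were aligned globally (match 1, mismatch -1, gap -2).

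Replicate numbers are shared between treatments. The correlation of same-numbered arrays within a batch ran from -0.11 to 0.39, which alone would not have been taken to pair the samples. The replicate block of the treatment comparisons follows the study's methods, so their errors and p-values rest on it, and the counts without it are given among the alternatives. Alternatives were no background correction, scaling to one median, normalization within each batch, an offset of 50, other detection filters, no replicate block, other probes of a gene and leaving out each array. The alternatives for the batch comparisons of single genes were chosen after seeing the data.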

Additional observations from a re-analysis of the deposited data

Results flagged for a closer look

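Treatment effects that differed between the batches are listed first, as batch 2 minus batch 1 on the log2 scale. For RA against IL-1α the difference was -2.95 for Saa1, -1.97 for Saa2, -4.11 for Saa3, -1.99 for Lcn2, -1.69 for Slpi and -0.90 for Hp. For RA against untreated it was -2.43 for Saa1, -3.38 for Saa3, -1.43 for Lcn2 and -1.85 for Slpi. For IL-1α against untreated it was 1.48 for Saa2 alone. Batch and mouse line cannot be told apart, and each batch holds 2 arrays per treatment.

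Of 36 groups of 4 arrays, 1 held a value standing apart from the other 3, which chance gives in about 1 group in 20. It was Orm1 with RA in batch 2 replicate 2, at 4.67 against 4.80 to 4.83, and all 4 values were below detection.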

How the results depend on the processing

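Of the treatment differences of the 9 measured genes, only small ones of RA against untreated changed direction. Saa2 (-0.02) became 0.0028 without background correction, 0.010 with scaling to one median and 0.014 with an offset of 50, and lay between -0.24 and 0.20 when single arrays were left out. Saa1 (-0.35) became 0.12 and 0.11 without RA batch 2 replicate 1 or 2, and Orm2, undetected in both groups, also turned when either of 2 arrays was left out. Without the replicate block, 5702 probes were called for IL-1α against untreated, 6752 for RA against untreated and 5938 for RA against IL-1α, beside 5334, 6436 and 5656 with it, and 34, 28 and 29 of the companion genes, beside 32, 27 and 30. With neither block nor batch the probe counts were 1327, 2215 and 1984, and the companion counts 13, 13 and 13. Scaling to one median gave 3104 called probes for IL-1α against untreated, and detection on all 12 arrays gave 20 companion genes. That scaling also moved the median of all probes for RA against untreated from 0.02 to 0.14, and its calls split into 3426 higher and 1796 lower, beside 3320 and 3116, and for RA against IL-1α into 2685 and 1411, beside 2773 and 2883.

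In batch 2 against batch 1, the 8 called acute-phase genes became 3 with scaling to one median, 5 with normalization within each batch, 5 with no filter and 4 with detection on all 12 arrays. Normalization within each batch reversed Saa2 (0.0017), Lcn2 (0.0091), Orm1 (0.25) and Orm2 (0.32). The causes were not tested, apart from the smaller number of genes that a stricter filter leaves. Background correction and offset set the size of the dim genes' differences, with Orm1 for IL-1α against untreated at 2.93 without correction and 2.80 with an offset of 50, beside 3.72.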
